A study of Mus musculus with 6 samples.

Results

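The cells described here are Il12b+ mature dendritic cells (DCs) from mouse bone marrow cultures. A barcode was kept if it held at least 300 genes, under 100000 UMIs (unique molecular identifiers, which count captured RNA molecules) and under 10% mitochondrial UMIs. The cells were chosen by their own UMIs of 2 genes: a kept cell was called mature if it held 5 or more Ccr7 UMIs and Il12b+ if it also held 2 or more Il12b UMIs. This gave 771 Il12b+ cells among 8659 mature cells (8.90%) and 24051 kept cells (3.21%). Both genes were used to choose the cells, so their levels are given as descriptions only. The comparators were the 7221 mature cells of the same libraries with 0 Il12b UMIs, called Il12b-zero cells.

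The study compared vitamin D3 and loss of Ndrg2 in cultured DCs, and placed control and Ndrg2-KO DCs on wounds. All cells came from bone marrow of wild-type C57/BL6 mice and were grown with GM-CSF, and the suspended fraction of the cultures was used. The 3 droplet libraries were untreated DCs, VD3 stimulated DCs (given calcitriol for a day) and Ndrg2-KO DCs (Ndrg2 edited by nucleofection of Cas9 protein with guide RNAs). Each condition was 1 library, the number of mice behind a library was not given in the sources used here, and the untreated cells are not described as nucleofected, so the edit and the nucleofection cannot be told apart.

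Il12b encodes p40, the subunit shared by IL-12 and IL-23. It pairs with the product of Il12a to make IL-12, which drives T cells and natural killer cells towards interferon gamma, and with that of Il23a to make IL-23. DCs switch Il12b on through NF-kB, C/EBP and interferon regulatory factors when microbial products or T cells activate them. Ccr7 is the receptor that guides mature DCs to lymph nodes, and mature DCs are found in GM-CSF cultures without an added stimulus.

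Il12b lies at chr11:44400063-44414033 on the plus strand (GRCm38, GENCODE). Its promoter is shown because it holds the best known control sites of the gene. The 250 bases before its start (chr11:44399813-44400062, RefSeq, GRCm38.p6) are printed with the NF-kB half-site (searched as GGGGAATTT on both strands, at position -130) and the C/EBP core (TTGCAAT, at position -93) in capitals.
Il12b promoter: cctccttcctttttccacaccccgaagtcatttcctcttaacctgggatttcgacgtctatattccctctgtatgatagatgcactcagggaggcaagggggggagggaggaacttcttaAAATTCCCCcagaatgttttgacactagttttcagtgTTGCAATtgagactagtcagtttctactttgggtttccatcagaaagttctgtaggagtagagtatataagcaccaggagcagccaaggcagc
In windows of 250 bases before to 50 after the start, the half-site letters were found for 0.296% of the 9125 genes with a promoter and the C/EBP core for 1.70%.

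Further windows are shown for genes whose levels differed between Il12b+ and Il12b-zero cells and that act downstream of interferon, IL-12 or GM-CSF. Capitals mark a STAT element (TTCNNNGAA) in Irf1, Irf8, Cish and Ccl17 and an interferon regulatory factor core (GAAANNGAA) in Stat4 and B2m, each searched on both strands.
Irf1 (chr11:53769915-53769941, position -90): cagcctgatTTCCCCGAAatgatgagg
Irf8 (chr8:120736178-120736204, position -171): aaaagtgatTTCTCGGAAagagagcgc
Cish (chr9:107296661-107296687, position 11): cctggaaagTTCTTGGAAatctgtcaa
Ccl17 (chr8:94810345-94810371, position -99): tatctcaaaTTCTTTGAAtttctctag
Stat4 (chr1:52008134-52008160, position -97): atgtcttcaGAAAGTGAAatttagaac
B2m (chr2:122147539-122147565, position -139): taagaacatGAAACTGAAaatgggaaa
The STAT element was found for 8.20% of all genes with a promoter, 8.55% of those higher and 8.86% of those lower in Il12b+ cells. For the interferon regulatory factor core these shares were 8.93%, 15.8% and 10.1%. They are descriptions of letters in these windows.

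The kept cells held 132574308 UMIs in 7257 cells of untreated, 116461484 in 8825 of VD3 stimulated and 143627482 in 7969 of Ndrg2-KO DCs. Il12b+ cells numbered 287 in untreated, 319 in VD3 stimulated and 165 in Ndrg2-KO DCs. Their summed depth was 4422224, 5467701 and 2355772 UMIs. Pairs of libraries shared 11 to 19 kept barcodes, and no shared barcode was an Il12b+ cell in both (0). Il12b+ cells were somewhat shallower than Il12b-zero cells, with median UMIs of 12600 against 15881.5 (untreated), 13419 against 14649.5 (VD3 stimulated) and 12154 against 13304 (Ndrg2-KO). Mitochondrial shares were close, at medians of 5.32% to 7.15% in Il12b+ and 5.66% to 7.30% in Il12b-zero cells. All intervals below are 95% intervals and cover counting error only, since UMIs of a cell and cells of a culture are not independent.

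Il12b+ cells made up 9.87% of the mature cells of untreated DCs (exact binomial interval 8.81% to 11%), 8.61% in VD3 stimulated DCs (7.73% to 9.56%) and 8.06% in Ndrg2-KO DCs (6.91% to 9.32%). The intervals overlap. As a share of all kept cells the values were 3.95%, 3.61% and 2.07%, and the lowest is that of the culture with the fewest mature cells (2048 against 2907 and 3704). After each mature cell was drawn to 5000 UMIs, 10.1% of untreated, 9.18% of VD3 stimulated and 9.92% of Ndrg2-KO mature cells held an Il12b UMI, with overlapping intervals (9.06% to 11.3%, 8.27% to 10.2% and 8.64% to 11.3%). Without drawing, the shares were 17.8%, 15.4% and 17.0%.

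**Figure D1:**
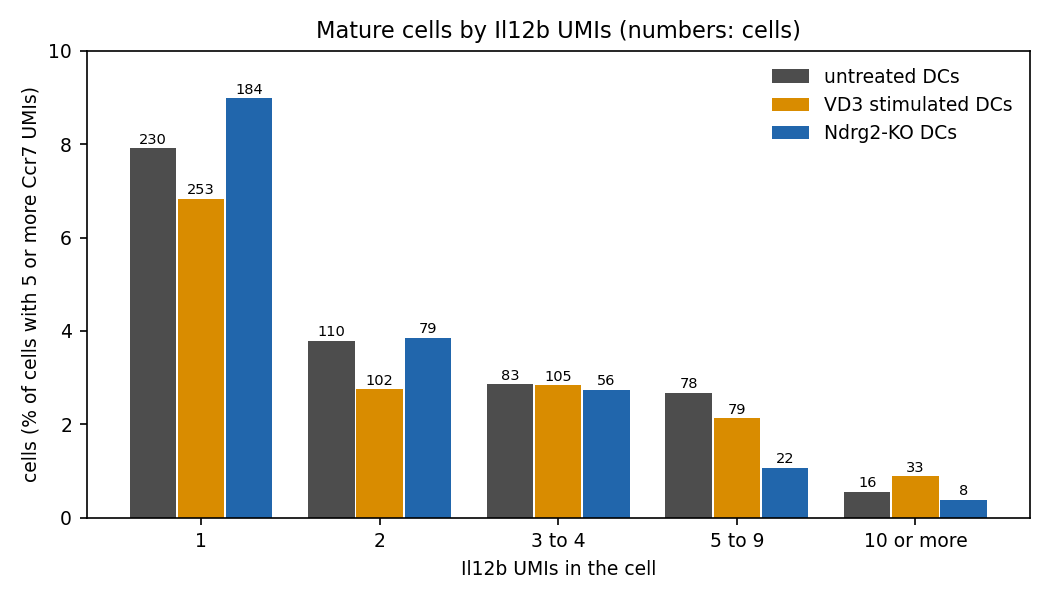
Mature cells by the number of Il12b UMIs they held, as a percent of the cells with 5 or more Ccr7 UMIs in each culture, with the number of cells above each bar. Cells with 10 or more Il12b UMIs numbered 16 in untreated, 33 in VD3 stimulated and 8 in Ndrg2-KO DCs.

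The Il12b level was uneven among these cells. Their median was 3 Il12b UMIs in every library and the highest cell held 23, 26 and 15, in the same order of cultures. Il12b+ cells held 80.5%, 82.4% and 64.9% of all Il12b UMIs of the kept cells. Cells with 0 Ccr7 UMIs gave the background: 0.109, 0.720 and 0.270 Il12b UMIs per 1000000 UMIs (CPM), in 0.184%, 0.446% and 0.288% of cells. These background cells differed in depth, with median UMIs of 15916.5, 5227.5 and 17883. In Il12b+ cells the rule gave 273, 276 and 245 CPM. Outside the mature cells, 47 cells held 2 or more Il12b UMIs, 29 of them in Ndrg2-KO DCs.

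The partner subunits were not seen in Il12b+ cells. Il12a and Il23a had 0 UMIs in the Il12b+ cells of every library, which allows up to 0.678, 0.549 and 1.27 CPM (3 UMIs of the sum of each culture). At this depth, transcripts of p40 were therefore detected in Il12b+ cells without detectable transcripts of either partner chain. The Il12b-zero sums were deeper, at 47018403, 55270333 and 26337229 UMIs in untreated, VD3 stimulated and Ndrg2-KO DCs. There Il12a had UMIs in every library, and Il23a had UMIs in untreated and VD3 stimulated DCs and 0 in Ndrg2-KO DCs. The counts of 0 are therefore not read as a difference from the other mature cells.

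Cd200, Ndnf and Ramp3, also named as markers of these cells, were measured independently of the rule, although they were proposed with results of these data known. Cd200, a ligand that restrains myeloid cells, stood at 69.9, 76.6 and 78.5 CPM in Il12b+ cells (untreated, then VD3 stimulated, then Ndrg2-KO, as in all later triplets) and at 39.3, 47.7 and 31.0 CPM in Il12b-zero cells (log2 difference 0.90, SE 0.105, adjusted p = 0.000379). Ndnf, a secreted factor first known from neurons, stood at 32.6, 76.4 and 20.0 CPM against 15.4, 50.8 and 8.96 CPM (0.83, SE 0.119, adjusted p = 0.00159). Ramp3, a partner of the calcitonin receptor family, stood at 135, 124 and 275 CPM against 88.8, 77.3 and 187 CPM (0.60, SE 0.0654, adjusted p = 0.000242). All 3 were higher in Il12b+ cells of every library, and cells with 1 Il12b UMI, just outside the rule, are given beside those with 2 as a description. Cd200 stood at 53.2, 55.7 and 71.4 CPM with 1 UMI and at 54.4, 69.7 and 76.5 CPM with 2. Ndnf stood at 28.8, 74.4 and 20.3 CPM with 1 UMI and at 29.6, 73.6 and 12 CPM with 2, and Ramp3 at 125, 99.5 and 280 CPM against 125, 115 and 254 CPM.

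Ccr7 chose the cells, so it cannot bear out their label as mature DCs. Other genes of mature DCs are given as a description, without levels from cells outside the label. Of these, Ccl19 had 0 UMIs in both classes of every library. Fscn1, an actin bundler of mature DCs, was at 662, 312 and 353 CPM in Il12b+ cells, and Ccl22, a chemokine of mature DCs, at 2423, 1115 and 1938 CPM. Neither passed the test against Il12b-zero cells (log2 differences 0.58 and -0.10, adjusted p = 0.0549 and 0.602). Premature DC markers summed to 2619, 1351 and 6236 CPM in Il12b+ cells and to 2816, 1112 and 6984 CPM in Il12b-zero cells. In Ndrg2-KO DCs macrophage markers summed to 765 CPM in Il12b+ and 767 CPM in Il12b-zero cells. Apart from the neutrophil markers below, markers of other cells were low or shared with the comparators. Xcr1 and Cd4 were at 0 in all Il12b+ cells, and the summed lymphocyte markers were at 0.183 to 1.13 CPM in Il12b+ cells and 0.645 to 3.66 CPM in Il12b-zero cells, while 9 cDC1 markers summed to 769 to 909 CPM in Il12b+ and 563 to 737 CPM in Il12b-zero cells.

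The 10 neutrophil markers moved with the class in different directions in different cultures. The sums of plasmacytoid DC, premature DC and proliferation markers also changed direction between cultures. The neutrophil markers summed to 2054, 1438 and 87.9 CPM in Il12b+ cells and to 831, 1050 and 326 CPM in Il12b-zero cells. Camp, a granule protein gene, had 0 UMIs in Il12b+ cells of VD3 stimulated and Ndrg2-KO DCs. S100a9 UMIs were found in 49, 62 and 9 Il12b+ cells, and the 10 highest held 98.8% of them in untreated and 97.9% in VD3 stimulated DCs. In Il12b-zero cells the 10 highest held 80.2%, 58.2% and 96.6%. Cells with UMIs of 3 or more neutrophil markers were 13, 14 and 1 of the Il12b+ cells (4.53%, 4.39% and 0.606%) and 91, 124 and 24 of the Il12b-zero cells (3.81%, 3.96% and 1.41%). Without such cells 359 genes were higher and 301 lower in Il12b+ cells.

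Which transcripts accompany Il12b was asked by comparing Il12b+ with Il12b-zero cells within each culture. UMIs were summed per library and class, and the 6 sums were compared by edgeR's quasi-likelihood test with library as a block and Benjamini-Hochberg adjustment over all 11716 genes tested. In Il12b+ cells 321 genes (2.74%) were higher and 292 (2.49%) lower at an adjusted p under 0.05. The median log2 difference of all genes was -0.01. The 3 cultures are 3 conditions, so p-values rest on how the difference between the classes varied over these libraries, and a called gene need not differ in each of them. The number lower was 172 without VD3 stimulated DCs and 449 without Ndrg2-KO DCs, and no gene (0) was called in a fit without the block, in which 266 genes had an unadjusted p under 0.05. DESeq2 with the block called 184 higher and 122 lower.

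**Figure D2:**
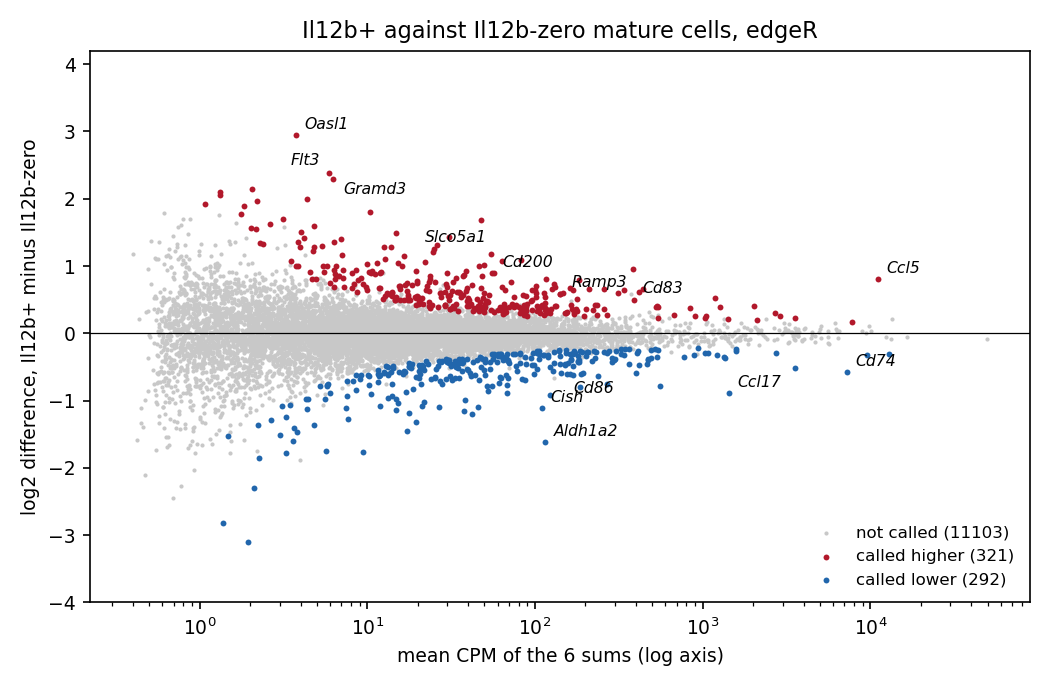
Log2 difference of each of 11716 genes, Il12b+ minus Il12b-zero mature cells, against the mean CPM of the 6 sums on a log axis. Red points are the 321 genes called higher and blue points the 292 called lower. Ccl5 lies among the most abundant genes called higher, and Ccl17 and Cd74 among the most abundant called lower.

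Genes were ranked by size among those called with the same sign in every culture and 50 or more UMIs in a class of each. Among the 15 with the largest positive differences, Grasp, a scaffold protein of receptor trafficking, was at 114, 33.5 and 72.6 CPM in Il12b+ cells and at 35.8, 11.2 and 19.5 CPM in Il12b-zero cells (log2 difference 1.69, SE 0.0874, adjusted p = 1.18e-06). Drawn to 5000 UMIs, it was found in 44.4%, 18.8% and 25.8% of Il12b+ cells against 17.4%, 5.32% and 10.2% of Il12b-zero cells (68.3%, 34.5% and 45.5% against 36.1%, 12.4% and 17.9% without drawing). Gramd3 had the largest difference of these (2.29, SE 0.255, adjusted p = 0.00026), with 17.9, 8.60 and 4.67 CPM against 2.62, 1.77 and 2.05 CPM. The others included Serpinb1a, an inhibitor of neutrophil proteases (1.44), Pfkfb3, which speeds up glycolysis (1.08), Eno2, a glycolytic enzyme (1.30), Slco5a1, a transporter (1.21), Zmynd15 (1.26), Bcl2l14, of the Bcl2 family (1.14), Tmem150c (1.31), Fgfbp3 (1.35), Ceacam15 (1.28), Ndrg4, a relative of Ndrg2 (1.28), Pxmp2 (1.05), Apol7c (1.06) and Saa3, an acute phase protein (1.11). Their adjusted p ran from 6.84e-06 for Pfkfb3 to 0.0127 for Saa3. Saa3 stood at 7.01, 15.7 and 31.4 CPM against 6.74, 6.35 and 9.49 CPM, with a log2 ratio of 0.06 in untreated DCs (interval -0.53 to 0.59). It was not called in cells of 10000 to 40000 UMIs, in cells drawn to 5000 UMIs, without doublets (0.25) or with 1 or more Il12b UMIs as the rule. Apol7c had a log2 ratio of 0.10 in Ndrg2-KO DCs (interval -0.66 to 0.78). Ceacam15 had 0.25 in VD3 stimulated DCs (-1.26 to 1.47), on 6 UMIs in Il12b+ cells. Serpinb1a was not called at under 5% mitochondrial UMIs (0.61), nor Eno2 in cells of 10000 to 40000 UMIs (1.19).

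Among the 15 with the largest negative differences, Aldh1a2, the enzyme that makes retinoic acid, was at 33.7, 17.6 and 131 CPM against 153, 47.1 and 309.5 CPM (log2 difference -1.62, SE 0.132, adjusted p = 4.06e-05). Drawn to 5000 UMIs, it was found in 11.5%, 7.32% and 30.1% of Il12b+ cells and in 35.9%, 14.1% and 52.2% of Il12b-zero cells (23.7%, 17.6% and 52.7% and 59.6%, 27.4% and 70.1% without drawing). Cish, a feedback inhibitor of GM-CSF and other STAT5 signals, was at 83.9, 80.5 and 46.3 CPM against 191, 173 and 90.2 CPM (-1.12, SE 0.0722, adjusted p = 5.9e-06). Mycl, a Myc family factor used by DCs (-1.31), Cd69, an early activation receptor (-1.10), Aqp9, a channel for water and glycerol (-1.46), Pou4f1 (-1.20), Pla2g15 (-1.15), Pdzk1ip1 (-1.19), Calcb, a calcitonin gene-related peptide (-1.75), Eef1a2 (-1.79) and Clec2l (-1.41) were lower as well. Several rest on few UMIs in Il12b+ cells and met the minimum of 50 through the Il12b-zero cells. Eef1a2 had 8, 6 and 4 UMIs in Il12b+ cells, Calcb 18, 11 and 3, and Clec2l 11, 9 and 4. Pdzk1ip1 had 1 UMI in those of Ndrg2-KO DCs. Eef1a2 was not called in cells drawn to 5000 UMIs (-2.13) or with 1 or more Il12b UMIs (-0.73), nor Clec2l in cells drawn to 5000 UMIs (-1.26) and Pdzk1ip1 with DESeq2 (-1.54). S1pr3 (-1.36) and Plekhf1 (-1.29) were not called without untreated DCs (-1.07 and -1.14, adjusted p = 0.103 and 0.198), and Crxos (-1.14) and Fabp7 (-1.13) were not called without Ndrg2-KO DCs (-0.48 and -0.81, adjusted p = 0.266 and 0.259).

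**Figure D3:**
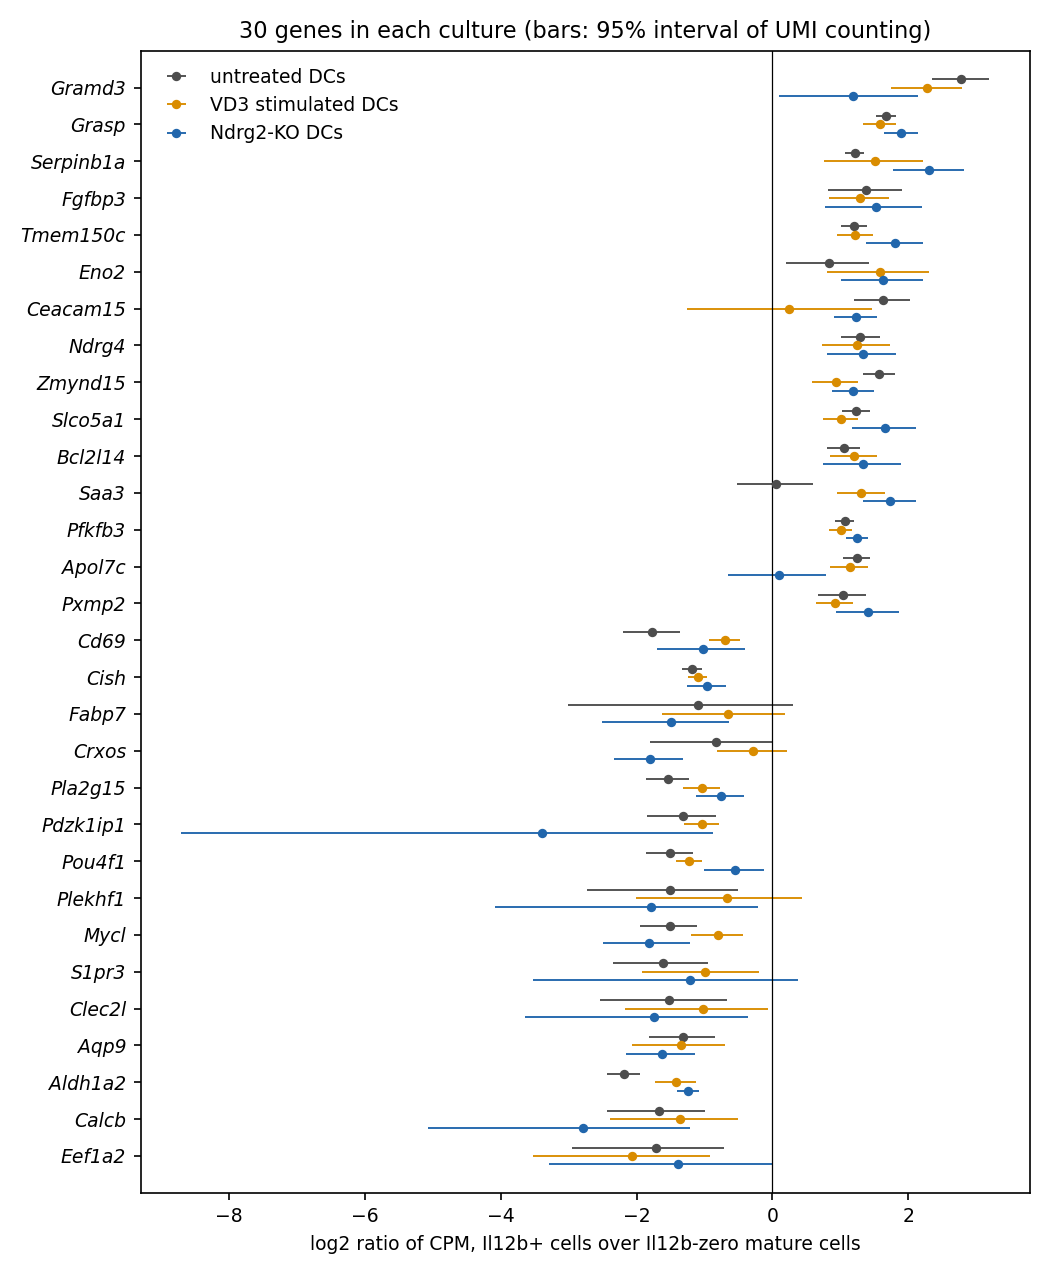
Log2 ratio of CPM, Il12b+ over Il12b-zero mature cells, for the 30 genes with the largest called differences in each culture, with 95% intervals of UMI counting. The ratios of Grasp were 1.67 (untreated), 1.58 (VD3 stimulated) and 1.90 (Ndrg2-KO). Intervals of Ceacam15, Saa3, Apol7c, Fabp7 and a few others reach 0 in 1 or more cultures.

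Of 29 tested genes of the mature DC programme 14 were higher and 3 lower, beside 2.74% higher and 2.49% lower of all genes tested, with a median log2 difference of 0.39 against -0.01. The list was written with earlier results of these data known, so these shares are a description and not a test of the programme. Ccl5, a T cell chemoattractant, was at 11840.2, 7761 and 22249 CPM in Il12b+ cells against 6402, 4062 and 14234 CPM (0.80, SE 0.0549, adjusted p = 6.84e-06). Il15ra, which presents IL-15 to lymphocytes (0.92), Epsti1 (0.96), Traf1, an adaptor of TNF receptors (0.60), Cd83, a maturation marker (0.50), Gadd45b (0.64), Tbc1d4 (0.60), Serpinb6b (0.66), Anxa3 (0.40), Cacnb3 (0.39), Relb, Slco5a1, Zmynd15 and Apol7c were the others higher. Ccl17, which attracts CCR4+ T cells, went the other way, at 1269, 695 and 1073 CPM against 2295, 1278 and 1962 CPM (-0.89, SE 0.0511, adjusted p = 2.23e-06). Tspan3 and Socs2 were lower (-0.39 and -0.24), but not called without VD3 stimulated DCs (-0.30 and -0.17, adjusted p = 0.157 and 0.382). Relb (0.37) was not called without untreated DCs (0.25, adjusted p = 0.158).

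Of 15 tested cytokines 1 was higher and 1 lower (2.74% and 2.49% of all genes), which is too few to read as a result about the list. Il15, which sustains natural killer and memory T cells, was higher, at 52.0, 67.9 and 56.9 CPM against 29.7, 47.2 and 33.1 CPM (log2 difference 0.67, SE 0.0884, adjusted p = 0.000887). Il1rn, the IL-1 receptor antagonist, was lower (-0.42), and not called without untreated (-0.42, adjusted p = 0.0721) or VD3 stimulated DCs (-0.44, adjusted p = 0.0836). Il6 (0.74, adjusted p = 0.0994), Il1b (-0.17, adjusted p = 0.831) and Tnf (0.04, adjusted p = 0.956) did not pass. The 17 tested pattern receptors and adaptors gave no call (0), and the 13 immediate early and heat shock genes gave none (0).

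Costimulatory and checkpoint ligands split by gene, with 2 of 18 tested higher and 4 lower (2.74% and 2.49% of all genes). Cd40, the receptor for T cell help (0.54), and Icosl (0.63) were higher (adjusted p = 0.0326 and 0.0314). Neither was called in cells of 10000 to 40000 UMIs, without doublets or with 10 or more Ccr7 UMIs, nor Cd40 with DESeq2 or Icosl at under 5% mitochondrial UMIs. Cd86, the ligand of CD28, was lower, at 121, 93.5 and 156 CPM against 189.7, 133 and 241 CPM (log2 difference -0.61, SE 0.0666, adjusted p = 0.000236). Pdcd1lg2, encoding PD-L2, was at 33.2, 17.2 and 59.4 CPM against 66.3, 24.8 and 114 CPM (-0.86, SE 0.0986, adjusted p = 0.00033). Tnfrsf9 (-0.76) and Nectin2 (-0.88) were lower too. Cd80 (-0.37, adjusted p = 0.283) and Cd274 (-0.08, adjusted p = 0.624) did not pass. The median over the list was -0.06.

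Of 34 transcription factors tested, 5 were higher and 3 lower (2.74% and 2.49% of all genes), and the median log2 difference was 0.11. Irf1, an interferon-induced activator of Il12b, was at 75.3, 61.1 and 62.8 CPM in Il12b+ cells against 33.6, 36.5 and 26.8 CPM (1.01, SE 0.101, adjusted p = 0.000117) and was found, drawn to 5000 UMIs, in 34.8%, 25.8% and 30.7% of cells against 17.1%, 18.0% and 14.1% (62.4%, 58.9% and 50.9% against 42.8%, 41.9% and 30.2% without drawing). Irf8, its partner and a factor of cDC1 development, was at 389, 596 and 516 CPM against 204, 444 and 349.7 CPM (0.62, SE 0.089, adjusted p = 0.00159). Stat4, which carries the IL-12 signal, was higher (0.57, adjusted p = 0.00341), though not at under 5% mitochondrial UMIs (0.36), and Nr4a3 was lower (-0.59, adjusted p = 0.000346). Id2 (0.25), Relb (0.37), Cebpb (-0.28) and Nfkb1 (-0.33) were called, but without untreated DCs gave adjusted p = 0.0748, 0.158, 0.138 and 0.126, and without VD3 stimulated DCs Cebpb and Nfkb1 gave 0.127 and 0.205. Irf4 (-0.22, adjusted p = 0.165), Rel (-0.09, adjusted p = 0.631) and Batf3 (0.24, adjusted p = 0.073) did not pass.

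Antigen presentation genes are given by class, beside 2.74% higher and 2.49% lower among all genes tested. Of 11 MHC class II genes only Cd74, the invariant chain, was lower, at 8054, 5787 and 4011 CPM against 9882, 7253 and 8401 CPM (log2 difference -0.58, SE 0.114, adjusted p = 0.0106). H2-Ab1 (-0.17, adjusted p = 0.684) and H2-Aa (-0.19, adjusted p = 0.544) did not pass. Of 16 MHC class I genes, Psme1, of the proteasome activator (0.41, adjusted p = 0.00215), B2m, the light chain (0.26, adjusted p = 0.0235), and H2-Q4 (0.40, adjusted p = 0.026) were higher. Without untreated DCs B2m was at 0.16 (adjusted p = 0.232) and H2-Q4 at 0.30 (adjusted p = 0.0821).

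Of 13 interferon response genes tested, 3 were higher and 2 lower, where 2.74% of all genes were higher and 2.49% lower. Oasl1, an antiviral regulator, was at 9.05, 2.74 and 7.64 CPM against 0.766, 0.199 and 2.13 CPM (log2 difference 2.94, SE 0.381, adjusted p = 0.000766), which rests on 40, 15 and 18 UMIs in 27, 12 and 15 Il12b+ cells. Rsad2 (0.91) and Usp18 (0.43) were higher and Ifi27l2a (-0.79) and Stat2 (-0.43) lower. Without VD3 stimulated DCs Rsad2, Usp18 and Stat2 gave adjusted p = 0.0684, 0.0793 and 0.0844, and without untreated DCs Usp18 and Stat2 gave 0.145 and 0.112. The called genes of the list thus lay in both directions.

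Of 16 tested chemokine and receptor genes 5 were lower and 2 higher, where 2.49% of all genes were lower and 2.74% higher. Those lower included Cxcl2 (-1.08), Ccl9 (-0.47), Ccl6 (-0.33) and Ccl17, and those higher were Ccl5 and Cxcl16 (0.27). Cxcl2 was not called with DESeq2 (-1.69) or without doublets (-0.90), nor Ccl6 in cells of 10000 to 40000 UMIs (-0.18) or with 10 or more Ccr7 UMIs (-0.10). Cxcl16 was not called without untreated (0.21, adjusted p = 0.199) or VD3 stimulated DCs (0.25, adjusted p = 0.144). Of 16 apoptosis regulators, read against the same shares, Pmaip1 (0.49) and Cflar (0.37) were higher, Cflar at an adjusted p = 0.0525 without untreated DCs. Vdr, the vitamin D receptor, was lower, at 45.0, 106 and 90.8 CPM against 93.6, 152 and 104 CPM (-0.60, SE 0.112, adjusted p = 0.00758), but was not called without doublets (-0.57, adjusted p = 0.0701).

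Marker lists of other DC states and cells are read against 2.74% higher and 2.49% lower of all genes. Of 8 premature DC markers only Fn1 was lower (log2 difference -0.29, adjusted p = 0.0477), and it was not called without any 1 library (adjusted p = 0.280, 0.0613 and 0.0562 without untreated, VD3 stimulated and Ndrg2-KO DCs). Fn1 also belongs to the 8 wound healing genes of the study, of which Mgst1 was lower too (-0.44, adjusted p = 0.00588), though not called at under 5% mitochondrial UMIs. The 11 macrophage markers included Mertk (-0.85) and C1qa (-0.36) among the lower genes, with adjusted p = 0.0596 and 0.264 without untreated DCs and 0.0641 for C1qa without VD3 stimulated DCs. Of 7 tested cDC1 markers Irf8 was higher and Naaa lower (-0.36, with adjusted p = 0.0821 without untreated DCs), and the list median was 0.30. The cDC2, plasmacytoid DC, basophil and proliferation markers gave no call (0).

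Flt3, Tcf7, Dusp2 and Id3 were singled out after their values were seen. Flt3, the receptor that marks DC progenitors and conventional DCs, was at 12.7, 7.68 and 8.91 CPM in Il12b+ cells and 3.0, 0.887 and 2.13 CPM in Il12b-zero cells (log2 difference 2.38, adjusted p = 0.000137). It was found in 48 of 287, 25 of 319 and 15 of 165 Il12b+ cells against 114 of 2390, 40 of 3132 and 41 of 1699 Il12b-zero cells, and drawn to 5000 UMIs in 9.68%, 4.14% and 4.91% against 2.02%, 0.519% and 1.38%. Dusp2, a phosphatase of MAP kinases (2.0), Tcf7, a lymphoid and DC precursor factor (1.60), and Id3 (1.08) were higher too.

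Levels were also read by the number of Il12b UMIs in the cell. Aldh1a2 in untreated DCs was at 153 CPM in cells with 0 Il12b UMIs, 55.4 CPM with 1, 25.3 CPM with 2, 35.0 CPM with 3 to 4, 43.3 CPM with 5 to 9 and 45.5 CPM with 10 or more. Most of its difference therefore lay between 0 and 1 UMI. Cish gave 191, 102, 91.0, 75.2, 87.4 and 50.1 CPM over the same bins, and in VD3 stimulated DCs it was at 63.0 CPM with 5 to 9 and 91.4 CPM with 10 or more. Neither gene moved in 1 direction over all bins. Ccl17 was lowest in the cells with 10 or more Il12b UMIs in every culture, at 533, 379 and 177 CPM against 2295, 1278 and 1962 CPM in cells with 0. The highest bin held only 16, 33 and 8 cells, and the bins are described without a test.

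**Figure D4:**
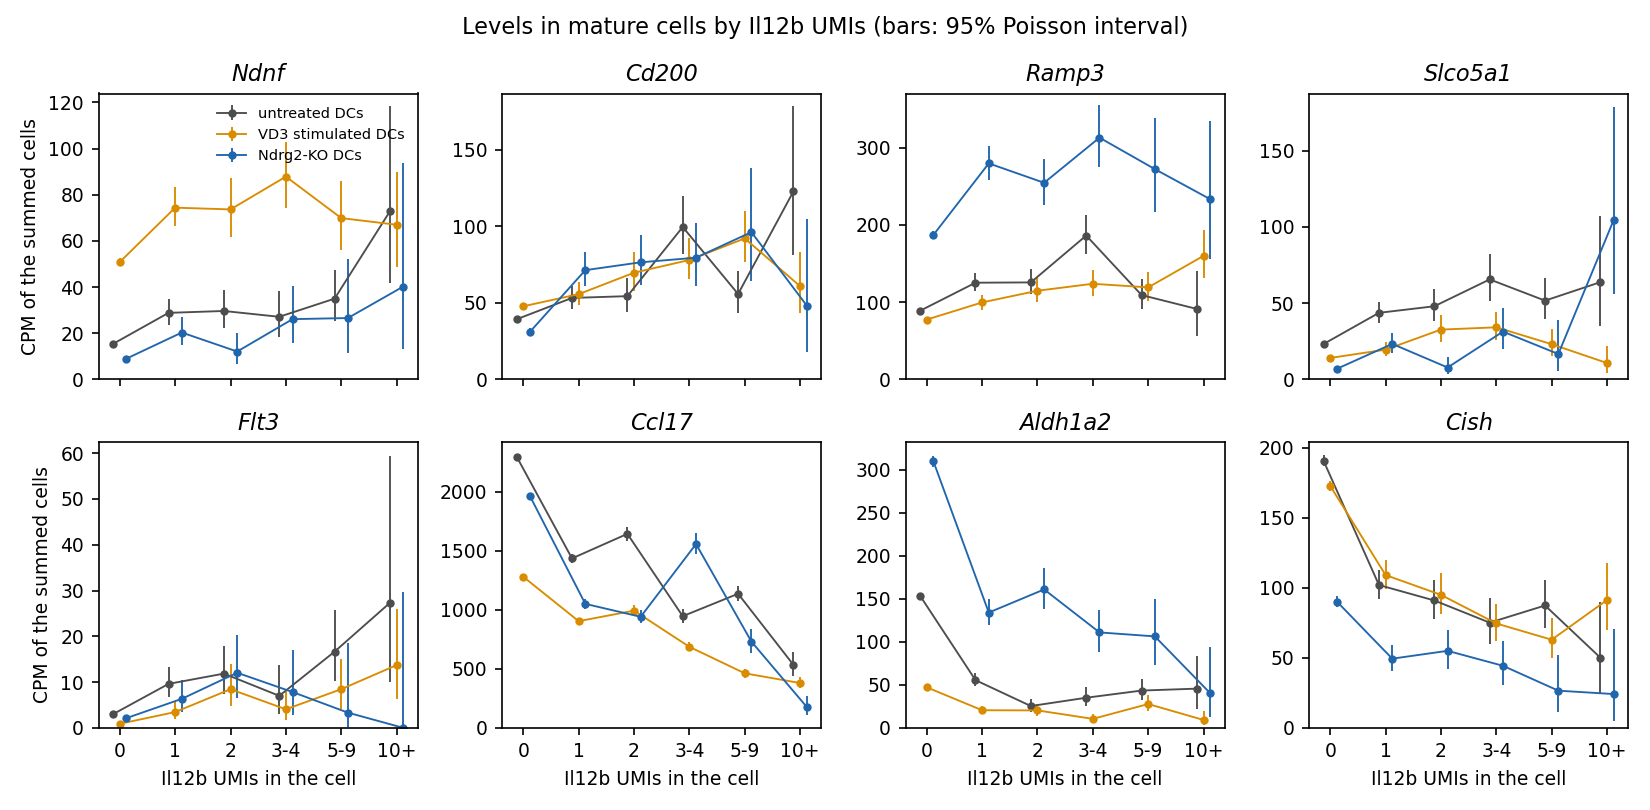
CPM of 8 genes in mature cells summed by the number of Il12b UMIs in the cell (0, 1, 2, 3 to 4, 5 to 9, 10 or more) for each culture, with 95% Poisson intervals. Cish in untreated DCs ran from 191 CPM at 0 Il12b UMIs to 50.1 CPM at 10 or more, where intervals are wide.

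Across the conditions the Il12b+ cells were compared as 1 sum per library. No replicate check and no test were possible, and a gene counts as called where CPM differed 2-fold or more with at least 50 UMIs in both sums together. Ndrg2, the edited gene, had 51 UMIs in 27 Il12b+ cells of untreated DCs (11.5 CPM), 8 UMIs in 6 cells of VD3 stimulated DCs (1.46 CPM) and 4 UMIs in 3 cells of Ndrg2-KO DCs (1.70 CPM). Il12b-zero cells held 5.59, 1.77 and 1.37 CPM. The transcript was thus low in both treated cultures, and 3′ counting does not show the edit itself.

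Between VD3 stimulated and untreated Il12b+ cells 258 of 8606 genes (3.0%) were higher and 277 (3.22%) lower. Cyp24a1, the vitamin D3 inactivating enzyme and a target of its receptor, had 569 UMIs in 55 of the 319 VD3 stimulated cells and 0 UMIs in untreated and Ndrg2-KO cells (log2 ratio of at least 7.26). Gdf15, a stress cytokine, had a log2 ratio of 6.68 (5.32 to 8.56) in Il12b+ and 5.19 in Il12b-zero cells, with UMIs in 54 of 319 VD3 stimulated and 4 of 287 untreated Il12b+ cells. Lpar6, a lysophosphatidic acid receptor, was at 59.4 against 7.01 CPM (3.08). Scd1 (3.48), Jdp2 (2.72), Acpp (2.88), Ccl4 (3.37) and C3 (2.48) were higher as well, and 90.6% of the Ccl4 UMIs lay in 10 VD3 stimulated cells. At under 5% mitochondrial UMIs Ccl4 had 3 and 4 UMIs (0.079). Vdr itself was higher (1.24, 1.0 to 1.48).

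Ccr2, the receptor of precursor DCs and monocytes, had 442 UMIs in 35 of 287 untreated Il12b+ cells and 0 in the VD3 stimulated ones. Without doublets 59 of the untreated UMIs were left (log2 ratio of -4.70 or lower, against -7.51 or lower). Mmp12, a macrophage elastase, was at 25.1 against 568 CPM (log2 ratio -4.50, and -4.20 in Il12b-zero cells). Serpinb1a (-4.75), Mgl2 (-3.99), Plet1 (-3.22), Fn1 (-2.68), Eno3 (-2.61) and Tubb2b (-2.44) were lower too. Without doublets Fn1 was at 0.92, Plet1 at -0.85 and Mmp12 at -1.53, and at under 5% mitochondrial UMIs these were at -5.81, -5.85 and -8.35, each on 1 VD3 stimulated UMI. Where 3.22% of all genes were lower and 3.0% higher, 7 of 28 mature DC programme genes were lower and 0 higher, among them Fscn1 (-1.08, and -0.90 at under 5% mitochondrial UMIs) and Ccl22 (-1.12), and of 15 costimulatory ligands 4 were lower, Cd40 among them (-1.80). The ratios of Il12b-zero cells had the same sign in each of these genes.

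Between Ndrg2-KO and untreated Il12b+ cells 418 of 7781 genes (5.37%) were higher and 193 (2.48%) lower. With size factors from the median of ratios these were 302 and 251, and the median log2 ratio of all genes moved from 0.10 to -0.03. Vegfa, the angiogenic growth factor, was at 2.04, 16.3 and 87.4 CPM in the Il12b+ cells of the 3 cultures, with UMIs in 7 of 287, 56 of 319 and 81 of 165 cells. Its log2 ratio of Ndrg2-KO over untreated was 5.43 (4.47 to 6.57) in Il12b+ and 4.85 in Il12b-zero cells. Sdc1, a heparan sulfate proteoglycan (5.21), Abca1, a cholesterol exporter (4.0), Gdpd3 (4.40), C3 (3.03) and Mucl1 (4.85) were higher. Arg1 (9.66) and Apoe (8.11) were higher too, but 10 Ndrg2-KO cells held 86.8% and 88.9% of their UMIs.

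Id3 went from 186 to 7.22 CPM from untreated to Ndrg2-KO Il12b+ cells (log2 ratio -4.69, -5.48 to -4.0) and had UMIs in 206 of 287 and 8 of 165 cells. Plet1 (-3.90), Apol7c (-2.82), Serpinb1a (-2.47) and Ifitm1 (-2.38) were lower. S100a9 (-5.86), S100a8 (-3.93) and Lcn2 (-4.16) were lower as well, in few cells, as given above for the neutrophil markers. Without cells with 3 or more neutrophil markers S100a9 was at -1.80, S100a8 at -0.80 and Lcn2 at 1.75 (6 against 3 UMIs). In Il12b-zero cells their ratios were -1.48, -1.43 and -1.11.

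MHC class II genes differed more in Il12b+ than in Il12b-zero cells of Ndrg2-KO DCs. Of 10 measured genes 7 were lower than in untreated Il12b+ cells (Ciita, H2-Oa, H2-DMb2, H2-Ab1, H2-Aa, H2-Eb1 and Cd74), with a median log2 ratio of -1.12 against -0.37 in Il12b-zero cells (2.48% of all genes were lower). At under 5% mitochondrial UMIs 3 of 10 were lower and the median was -0.59. H2-Ab1 was at 810.0, 576 and 365 CPM in Il12b+ cells and at 723, 482 and 698 CPM in Il12b-zero cells. With 1 library a condition the difference between these ratios was not tested. Of the 8 wound healing genes Vegfa, Fn1, Mmp12 and Mgst1 were higher and Ndrg2 lower in Ndrg2-KO Il12b+ cells, beside 5.37% higher and 2.48% lower of all genes. Mmp12 lay at the 2-fold limit (1.0, 0.92 to 1.08) and under it with size factors from the median of ratios (0.87) and at under 5% mitochondrial UMIs (0.90).

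**Figure D5:**
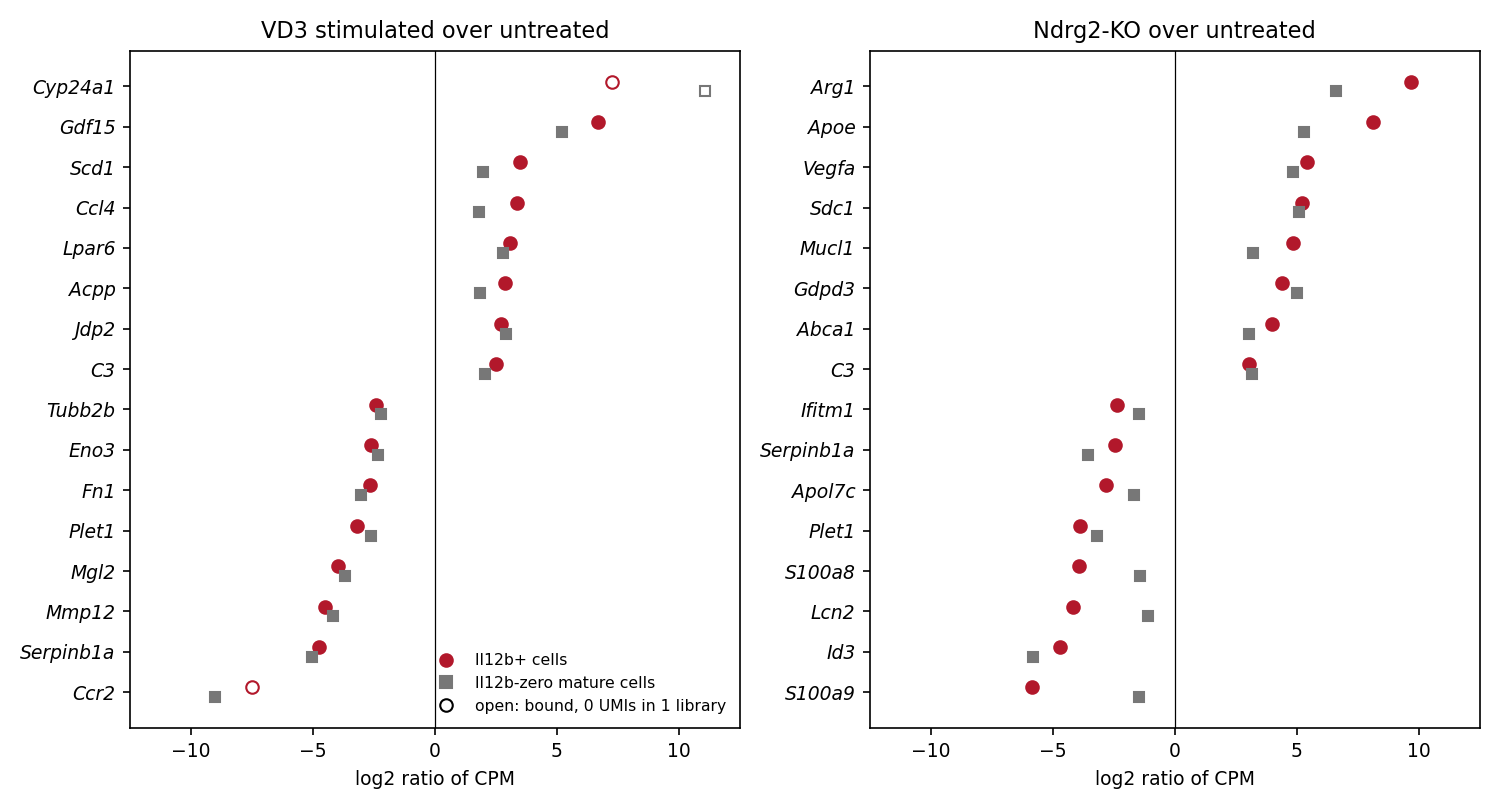
Log2 ratio of CPM, VD3 stimulated over untreated (left) and Ndrg2-KO over untreated (right), for the genes with the largest called ratios in Il12b+ cells (red circles) and in Il12b-zero mature cells (grey squares). Open marks are bounds where 1 library held 0 UMIs. Vegfa lies at 5.43 and 4.85, and S100a9 at -5.86 and -1.48.

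Ndrg2-KO and VD3 stimulated Il12b+ cells, both set against the same untreated library above, were also compared with each other. Of 8188 genes 519 (6.34%) were higher and 275 (3.36%) lower on the Ndrg2-KO side, or 420 and 347 with size factors from the median of ratios. Mmp12 was at 1139 against 25.1 CPM (log2 ratio 5.51) and Fn1 at 609.6 against 15.9 CPM (5.26), and Ccr2 had 456 UMIs in 53 of 165 Ndrg2-KO cells and 0 in VD3 stimulated cells. Without doublets Mmp12 was at 3.14 and Fn1 at 3.64, with 122 Ccr2 UMIs left, and in cells of 10000 to 40000 UMIs Mmp12 was at 7.91 and Fn1 at 7.79. Gdpd3 (5.57), Abca1 (3.59), Mucl1 (5.02), Arg1 (8.97) and Apoe (6.04) were higher. At under 5% mitochondrial UMIs Apoe was at 2.04 (10 against 11 UMIs) and Arg1 at 4.6 or more (16 against 0 UMIs). Scimp, an adaptor of MHC class II signalling, was at 5.94 against 97.3 CPM (-4.03) and in 12 of 165 against 216 of 319 cells. Olfr920 (-5.34), Gdf15 (-7.77), Ccl2 (-4.03), Lcn2 (-3.85), S100a8 (-3.70), S100a9 (-4.99) and Cyp24a1 were lower, and 95.3% of the Ccl2 UMIs of VD3 stimulated Il12b+ cells lay in 10 cells. Gdf15 had 1 UMI in Ndrg2-KO Il12b+ cells (interval -13.1 to -5.29), and over the alternatives its ratio ran from -7.87 to -1.36. Without doublets the direction of S100a9 (0.54) and S100a8 (0.16) turned and Lcn2 was at -0.91, and in cells of 10000 to 40000 UMIs Ccl2 was at -0.84.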

How the data were processed

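Single-cell RNA was measured in 3 libraries of cultured DCs (10x 3′ v3). The deposited values are raw counts of UMIs per gene and barcode, which the authors produced in Cell Ranger (3.1.0 per the file headers) for called cells. The labels list mm9 and Seurat 3.1.1 and the study's methods mm10. Positions given here are GRCm38, from the reference annotation. The wound libraries were not used here.

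UMIs of Il12b+ and Il12b-zero cells were summed per library. Genes passing filterByExpr were tested with edgeR 4.0.16 (R 4.3.3, limma 3.58.1; TMM, library as a block, 2 residual degrees of freedom), without Il12b and Ccr7. CPM is the sum scaled to 1000000 UMIs. A count of 0 was replaced by 3 UMIs for bounds. Conditions were compared as ratios with exact conditional binomial intervals. Shares of cells were drawn to 5000 UMIs where stated, and counts of cells are as deposited. Doublets were kept, and an alternative left out the highest 6% of Scrublet scores (scanpy 1.11.5). DESeq2 1.42.0, Python 3.11.15, NumPy 2.4.6, pandas 2.3.3, SciPy 1.17.1 and Matplotlib 3.10.9 were used. The scripts were tested on simulated data.

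The members and gene lists were chosen with earlier results of these data known. Genes named by size were the 15 largest called differences in each direction with the same sign in all 3 libraries and 50 or more UMIs in a class of every library, and, between conditions, the 8 largest in each direction with 200 or more UMIs in 1 sum, without mitochondrial, ribosomal and predicted genes. Promoters were matched by symbol. Alternatives were another tool, filter, block, library left out, depth range, doublet, mitochondrial and threshold choices. A single list gene is not reported here.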

Additional observations from a re-analysis of the deposited data

Results flagged for a closer look

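Cd80, H2-Ab1, H2-Eb1, H2-Oa, Ccl2, S100a8 and S100a9 had log2 ratios of Il12b+ over Il12b-zero cells on opposite sides of 0 in different cultures. None was tested as a difference between cultures, since each condition is 1 library.

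Cd80, a ligand of CD28, was at -0.79 in untreated, -0.52 in VD3 stimulated and 0.62 in Ndrg2-KO DCs. Drawn to 5000 UMIs, Cd80 was found in 26.9%, 35.4% and 27% of Il12b+ cells and in 43.0%, 48.7% and 17.5% of Il12b-zero cells. The MHC class II genes went the other way. H2-Ab1 was at 0.16, 0.26 and -0.93, H2-Eb1 at 0.37, 0.23 and -0.76, and H2-Oa at 0.45, 0.47 and -0.72. H2-Ab1 was found in 74.2%, 76.4% and 42.3% of Il12b+ cells and in 75.2%, 72.3% and 63.9% of Il12b-zero cells at 5000 UMIs.

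Ccl2, a monocyte chemoattractant, was at -1.88, 1.10 and -1.62, and 10 cells held 95.3% of its UMIs in VD3 stimulated Il12b+ cells. S100a8 was at 1.13, 0.55 and -1.37 and S100a9 at 1.5, 0.35 and -2.88. Without cells with 3 or more neutrophil markers, S100a9 was at -1.03, -0.22 and 0.82 and S100a8 at -1.13, -0.29 and 0.19. Over the 252 list genes tested, 37 had intervals on opposite sides of 0 in a pair of cultures, and 4 (Cd80, H2-Ab1, H2-Eb1 and H2-Oa) stayed 1 or more apart in all 5 settings tried.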

How the results depend on the processing

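Of 89 genes named or called from the lists, 52 kept their call and direction under all 12 alternatives with the library block (Dusp2 and Oasl1 were too low to be tested at under 5% mitochondrial UMIs), and all 89 lost the call without it. The number of Il12b+ cells was 225 at under 5% mitochondrial UMIs. The share of mature cells with an Il12b UMI was 17.8%, 15.4% and 17.0% as deposited and 5.85%, 4.94% and 6.01% at 2000 UMIs (untreated, VD3 stimulated, Ndrg2-KO), and 10.9% at 10000 UMIs in VD3 stimulated DCs. Genes higher and lower in Il12b+ cells numbered 184 and 122 with DESeq2, 0 and 0 without the library block (160 and 106 at an unadjusted p under 0.05), and 209 and 190 in cells of 10000 to 40000 UMIs. Lower genes numbered 679 without a filter and 188 at under 5% mitochondrial UMIs. Leaving out 1 library gave 254 to 479 higher and 172 to 449 lower genes. For VD3 stimulated over untreated cells a minimum of 200 UMIs gave 95 higher and 104 lower genes, removal of doublets 409 and 215, and the 5% mitochondrial limit 89 and 217. For Ndrg2-KO over untreated the minimum gave 141 and 58, and the 5% limit 196 and 224. For Ndrg2-KO over VD3 stimulated the minimum gave 192 and 87, and the 5% limit 203 and 153. These minimums test fewer genes and these limits use fewer cells.

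Signs turned in a few cases, and the cause was not tested. Camp was at 0.50 with 1 or more Il12b UMIs and Fn1 at 0.032 with 10 or more Ccr7 UMIs (Il12b+ minus Il12b-zero, log2). Between conditions, Fn1 (VD3 stimulated over untreated) was at 0.92, S100a9 at 0.54 and S100a8 at 0.16 (both Ndrg2-KO over VD3 stimulated) without doublets, and Lcn2 at 1.75 (Ndrg2-KO over untreated) without cells with 3 or more neutrophil markers, an alternative chosen after seeing the data. Of the 48 ratios named between conditions, 36 left their counting interval at under 5% mitochondrial UMIs, 24 in cells of 10000 to 40000 UMIs, 24 without doublets, 18 with a mean over cells, 16 without cells with 3 or more neutrophil markers and 0 with other size factors. At the 5% limit Ccl2 had 1 and 0 UMIs in Ndrg2-KO and VD3 stimulated cells, so no ratio is given, and Cyp24a1 had 0 and 10, so the ratio has an upper bound only. No paired analysis was possible because each condition has 1 library, apart from the library block used between classes.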
